A study of Mus musculus with 4 samples.

Results

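The genes described here are 10 components of Wnt signalling: the ligands Wnt7a and Wnt5a, the receptors Fzd1 and Fzd2, the secreted inhibitors Sfrp1, Sfrp2, Frzb and Dkk3, and the nuclear factor Lef1 and feedback gene Axin2. They were followed as every probe set annotated to exactly 1 of these genes, which gave 19 of the 22626 probe sets on the array that are not controls, and 10 of its 12393 genes. Wnt7a was chosen by its measured intensity, which was higher in the mutant arrays than in WT, so its values are a description and were not tested. The others complete the ligand, receptor, inhibitor and target set around it.

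Total RNA of mouse mitral valve, the leaflet tissue between left atrium and left ventricle, had been hybridised to 4 oligonucleotide arrays. The wild-type group (WT, Fbn1 +/+) held 1 array, the heterozygous group (Het, Fbn1 C1039/+) held 2, called Het1 and Het2 for replicates 1 and 2, and the homozygous group (Hom, Fbn1 C1039G/C1039G) held 1. Fbn1 encodes fibrillin-1, the glycoprotein of extracellular microfibrils, and the C1039G substitution is used as a mouse model of Marfan syndrome. For Het the labels name the changed residue but not its substitute, and they give no age, sex, strain or number of animals per array. WT and Hom had no replicate, and nothing says that the Het arrays came from separate animals. The p-values therefore rest on the spread of this pair, drawn largely from all probe sets together. That spread may be technical. Having so few arrays limits all precision.

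Wnt ligands are secreted lipid-modified glycoproteins that bind Frizzled receptors. In the canonical branch, ligand binding to a Frizzled receptor and an Lrp co-receptor keeps beta-catenin from being degraded, and beta-catenin then joins Lef1 or another Tcf factor on target genes. Axin2 is such a target and feeds back, because Axin proteins belong to the complex that marks beta-catenin for degradation. Sfrp1, Sfrp2 and Frzb carry a Frizzled-like domain and bind Wnt proteins outside the cell. In the developing heart, Wnt signalling takes part in forming the endocardial cushions from which valve leaflets grow.

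To show the DNA in front of the genes that the results turn on, the bases before 1 annotated transcription start of each were taken from RefSeq. Sequences for 6 of the 10 genes were at hand. Sfrp2 had the largest mean Het difference from WT among the kept probe sets of the member inhibitors. The sequences of Wnt7a, the gene chosen by its intensity, Sfrp2 and Axin2, the feedback target, are given on build GRCm38.p6. Each is the 250 bases that end at the base before the start, read 5′ to 3′ along the gene's own strand. Capitals mark GGGCGG, the GC box bound by Sp1-type factors, or its reverse complement CCGCCC. No match to CTTTGA or CTTTGT on either strand, which are forms of the Tcf and Lef recognition core and share their first letters, was found in these windows.
The Wnt7a window lies at chr6:91411354-91411603 on the minus strand, that of Sfrp2 at chr3:83766071-83766320 on the plus strand, and that of Axin2 at chr11:108920099-108920348 on the plus strand.
Wnt7a: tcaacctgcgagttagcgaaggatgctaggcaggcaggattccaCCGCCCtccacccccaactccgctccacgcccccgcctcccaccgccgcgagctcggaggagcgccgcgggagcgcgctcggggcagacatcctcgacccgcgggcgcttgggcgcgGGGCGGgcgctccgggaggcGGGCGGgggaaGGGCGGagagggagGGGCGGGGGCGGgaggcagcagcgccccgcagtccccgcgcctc
Sfrp2: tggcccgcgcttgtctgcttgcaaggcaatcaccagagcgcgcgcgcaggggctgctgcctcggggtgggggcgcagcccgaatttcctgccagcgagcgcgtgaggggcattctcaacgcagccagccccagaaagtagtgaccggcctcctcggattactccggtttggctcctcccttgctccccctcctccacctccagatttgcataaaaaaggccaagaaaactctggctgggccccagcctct
Axin2: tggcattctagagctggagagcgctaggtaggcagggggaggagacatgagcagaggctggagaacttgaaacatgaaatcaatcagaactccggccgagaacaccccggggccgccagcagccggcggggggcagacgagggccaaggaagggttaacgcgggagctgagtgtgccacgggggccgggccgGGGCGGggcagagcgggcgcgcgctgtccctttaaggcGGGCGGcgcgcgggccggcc

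The Wnt7a window holds 6 copies of GGGCGG counting both strands, with first bases at 206, 89, 69, 58, 44 and 38 bases before the start, the last 2 of them adjoining. Of the 32851 RefSeq windows of this length, 32.7% held the motif at least once and 0.886% at least 6 times. The Axin2 window holds 2 copies, at 58 and 20 bases before the start, and that of Sfrp2 none. GC content was 77.6% for Wnt7a, 69.2% for Axin2 and 63.6% for Sfrp2, against a median of 52.4%. CTTTGA or CTTTGT occurred in 27.6% of all windows. Among the members it occurred in the windows of Frzb and Fzd1 and in that of 1 of the 4 annotated Lef1 starts. These matches describe the sequence only.

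Expression values are intensities scaled so that the 4 arrays share 1 median. Values under 19, the 25th percentile of all values, were set to 19 for log2 differences, so a difference that involves such a value is a lower bound on its size. Probe sets were tested when their mean over the 4 arrays reached 62.6, the median of all probe set means, which kept 11313 probe sets. Of the 19 member probe sets, 13 were kept and 6 were too dim, and Fzd1 and Lef1 had none kept. Wnt7a was kept only through its mutant arrays, since its WT value lies below 62.6.

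**Figure D1:**
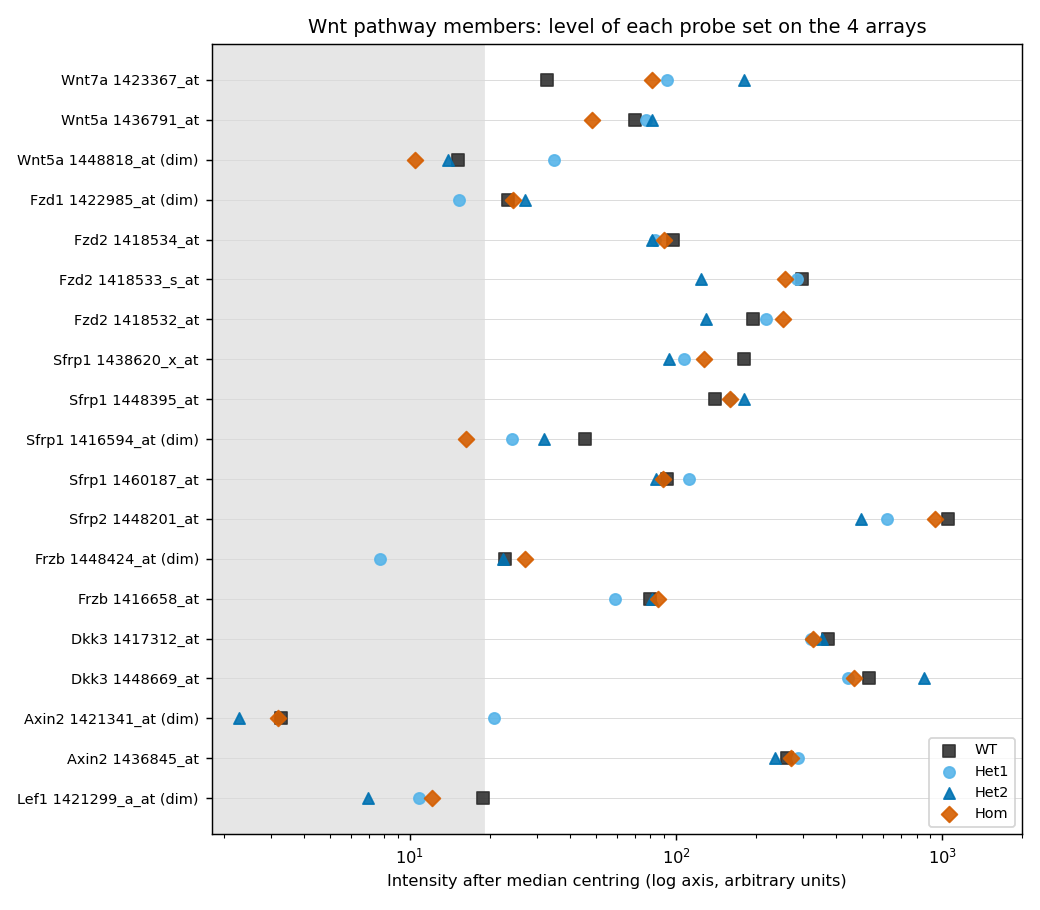
Intensity after median centring of the 19 member probe sets (rows) on the WT, Het1, Het2 and Hom arrays, on a log axis; the grey area is below the floor of 19, and dim marks the 6 probe sets that were not kept. For Wnt7a the WT array (32.9) lies apart from the 3 mutant arrays (81.3 to 180.1), whereas for Sfrp2 Het1 (621) and Het2 (494) lie below WT (1048) and Hom (941).

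Het2 stood apart from the other arrays. Its deposited median was 54 against 63.7 to 65.5, and centring raised it by 0.19 log2 units. Its 3' to 5' ratio of the actin control, which increases as RNA breaks down, was 3.04, against 2.16 to 2.25 on the other arrays. After centring, the median kept probe set lay 0.18 log2 units above WT in Het2, a shift that was -0.01 after quantile normalization and -0.07 with the scaling as deposited. In bulk tissue, fewer cells of a type and less RNA per cell cannot be told apart. The tissue label was checked against markers: 20 of 22 valve interstitial markers were kept, with none at the floor on every array, and all 28 cardiomyocyte markers were kept as well, so the samples also held heart muscle RNA. Each Het array is therefore given separately.

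Wnt7a, a ligand known from limb patterning, the female reproductive tract and the nervous system, read 32.9 in WT, 92.3 in Het1, 180.1 in Het2 and 81.3 in Hom. WT was the lowest array, as it was for 22.7% of all kept probe sets. The mutant arrays were 2.81-fold, 5.48-fold and 2.48-fold above WT, or 1.49, 2.45 and 1.31 on the log2 scale. All 3 differences have the same WT array as their base. Among the mutant arrays, Het1 and Hom lay 0.18 log2 units apart, less than the gap of 0.96 between the Het arrays. Hom read below both Het arrays. With 1 Hom array and Het1 this close to it, no relation to the number of mutant alleles was read. Over all kept probe sets, 0.354% were at least 2-fold higher than WT in both Het arrays, 0.583% in Hom and 0.186% in all 3 mutant arrays. These shares are background to a gene chosen for this pattern.

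Of the marker lists, the platelet sum was the one that increased most in the Het arrays, at 1446 in WT, 2601 in Het1, 4796 in Het2 and 1284 in Hom. All 8 platelet genes on the array, of 10 listed, were kept, and none was at the floor on every array. In Hom the sum was below WT although 5 of the 8 genes were above it, with a median difference of 0.24 log2 units over the 8, so sum and median differ in sign there. The sum of 20 macrophage markers, of 23 listed and with none at the floor throughout, was 5633, 4756, 10786 and 5331 in the same order. Of these 20 genes, 5 were above WT in Het1, 19 in Het2 and 8 in Hom. The smooth muscle sum, from 6 of 10 listed genes, was above WT on all mutant arrays, at 3844, 4432, 7035 and 4323, with Myh11, a defining gene, at the floor on every array. The epicardial sum, from 3 of 10 listed genes, was 232, 366, 304 and 242, and Wt1 and Msln, which define that layer, were at the floor on every array. The erythroid sum, from 4 of 12 listed genes, was 1522, 1395, 3910 and 1685, with Epb42 at the floor on every array. For melanocytes the sum, from 7 of 8 listed genes, was 1810, 1628, 2836 and 1937. The part of platelets, macrophages, smooth muscle, epicardial cells, erythroid cells and melanocytes in the Wnt7a values was not tested.

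The kept probe sets most like Wnt7a were found by Euclidean distance over the 3 log2 differences from WT, among 10395 with 1 gene. The nearest was Pkmyt1, a kinase that holds back entry into mitosis, at a distance of 0.33 and with intensities of 29.4, 81.8, 131 and 65.3 for WT, Het1, Het2 and Hom. Next came both kept probe sets of Plek, pleckstrin of platelets and leukocytes, at 0.43 and 0.46. Aldh1a3, an enzyme of retinoic acid synthesis, followed at 0.47 and Tmem87a at 0.59. With 4 arrays that share a WT base, this ranking is a description.

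Wnt5a, a ligand that mostly acts without beta-catenin, read 70.4 in WT, 77.2 in Het1, 81.5 in Het2 and 48.4 in Hom with its brighter probe set. Hom was the lowest array and the other 3 lay close together. The Het arrays differed by 0.08 log2 units, while Hom lay 0.67 and 0.75 below them. Hom minus WT was -0.54 (SE 0.56 from limma) and did not pass. The SE from limma draws mostly on the spread of the Het pair pooled over all kept probe sets. For Het minus WT it was 0.49 for this probe set and 0.56 for Fzd2 1418533_s_at. The standard deviation of the Het pair was 0.06 and 0.85 for these probe sets. The order of WT and Het2 depended on the scaling, since their difference of 0.21 became -0.03 with the scaling as deposited. The other Wnt5a probe set was dim and above the floor only in Het1, at 34.9. The 2 ligands thus differed in Hom, with Wnt7a above WT and Wnt5a below it, although no test of that difference was made.

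Among the receptors, Fzd2 was read by 3 kept probe sets that did not agree on Hom. The first, 1418533_s_at, whose suffix marks probes shared by several transcripts, read 297 in WT, 284 in Het1, 124 in Het2 and 256 in Hom. Only Het2 was low, 2.40-fold below WT. The second, 1418532_at, read 195, 218, 129 and 251 in the same order, again with Het2 lowest but with Hom highest. The third, 1418534_at, was flatter, at 97.2, 83.1, 81.4 and 89.7. Het2 minus WT was therefore -1.26, -0.59 and -0.26, and Hom minus WT -0.22, 0.37 and -0.12. Fzd1, a receptor of the same class, read 23.4, 15.3, 27.1 and 24.3, at or just above the floor on every array, so no order among the arrays was read from it.

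Sfrp2, a secreted Wnt-binding protein of fibroblasts, read 1048 in WT, 621 in Het1, 494 in Het2 and 941 in Hom. Both Het arrays lay below WT and Hom, and the share of all kept probe sets with this order was not counted. WT and Hom differed by only 1.11-fold. Het1 was 0.75 and Het2 was 1.08 log2 units below WT, and the Het arrays differed by 0.33. The mean Het difference from WT was -0.92 (SE 0.49), lower in 2 of 2 Het arrays, with a limma adjusted p of 0.9999 over all kept probe sets. Relative to Hom the 2 Het arrays were 0.60 and 0.93 lower. The direction in each Het array was kept by quantile normalization (-0.73 and -1.41) and by the deposited scaling (-0.74 and -1.32).

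Markers of valve interstitial cells, the fibroblast-like cells of the leaflet, were also lower in the Het arrays. Their sum over 20 of 22 listed genes was 66230 in WT, 55872 in Het1, 45738 in Het2 and 54326 in Hom. The Het sums were 0.25 and 0.53 log2 units below WT, smaller than the Sfrp2 differences of 0.75 and 1.08. In Hom the sum was 0.29 below WT, whereas Sfrp2 was 0.15 below. The cardiomyocyte sum went opposite ways in the Het arrays, at 1.25 times WT in Het1 and 0.556 times in Het2. For adipocytes the sum, from 3 of 11 listed genes, was 2502 in WT, 2372 in Het1, 1295 in Het2 and 2847 in Hom. Adipoq and Pparg, of that list, were at the floor on every array. The endothelial sum, from 17 of 18 listed genes, was 9484, 9664, 8341 and 8658 in the same order. The part of these cells in the Sfrp2 values was not tested.

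**Figure D2:**
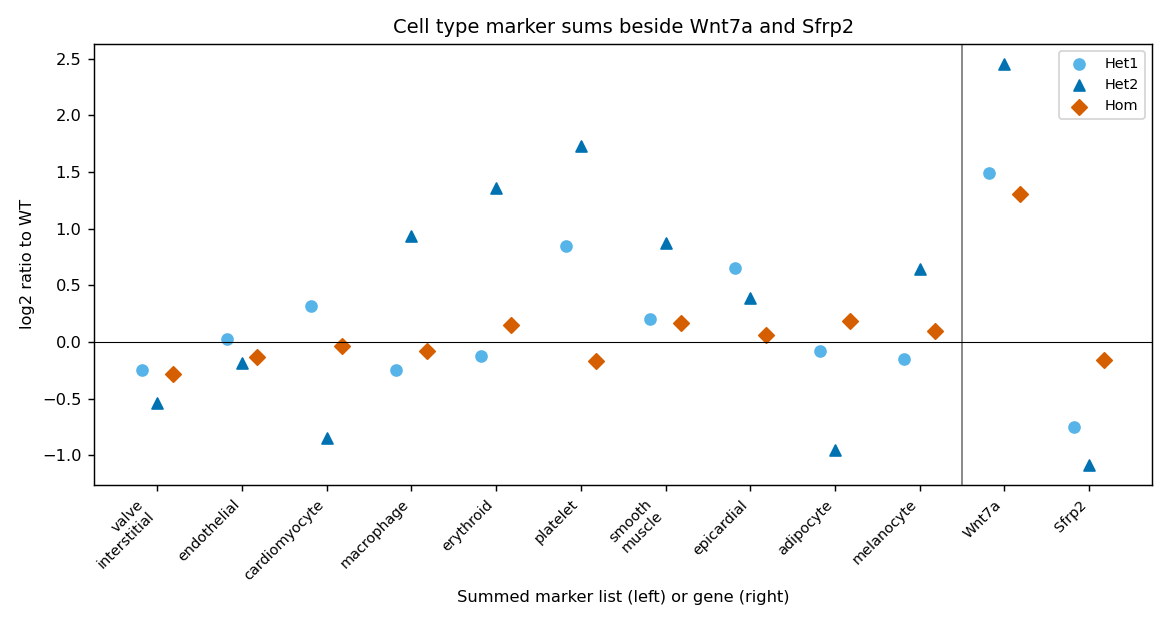
Log2 ratio to WT (vertical axis) of the summed intensity of 10 cell type marker lists (left of the line) and of Wnt7a and Sfrp2 (right), 1 symbol for each of Het1, Het2 and Hom. Wnt7a is above 0 on all 3 arrays (1.49, 2.45 and 1.31), while the platelet sum is above 0 on the Het arrays (0.85 and 1.73) and below 0 on Hom (-0.17), where 5 of its 8 genes are above WT.

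Sfrp1 was read by 4 probe sets that gave opposite directions. The probe set 1438620_x_at, of a type that may bind unrelated transcripts, read 180.3 in WT, 107 in Het1, 94.1 in Het2 and 127 in Hom. WT was highest there, by 0.75, 0.94 and 0.50 log2 units. The dim probe set 1416594_at was also highest in WT, at 45.7 against 24.1, 32.0 and 16.3, and as the Hom value is under the floor, Hom was at least 2.40-fold lower. In contrast, 1448395_at was lowest in WT, at 140.3, 159, 179.6 and 159. The fourth, 1460187_at, read 92.4, 112, 84.2 and 89.3, with Het1 highest. The mean Het difference from WT thus ran from -0.84 (SE 0.49) to 0.27 (SE 0.49) over the 3 kept probe sets, and none passed. The array gives no agreed direction for Sfrp1.

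Frzb, also called Sfrp3, read 79.8 in WT, 59.2 in Het1, 81.4 in Het2 and 85.8 in Hom. Het1 alone was low, 0.43 log2 units below WT, and the other 3 arrays lay within 0.10. The sign of Het2 against WT turned with the scaling, from 0.03 to -0.01 after quantile normalization and -0.21 as deposited. The second Frzb probe set was dim, at 22.7, 7.75, 22.3 and 27.1.

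Dkk3, a member of the Dickkopf family whose effect on Wnt signalling differs between cell types, had 2 kept probe sets. One of them, 1417312_at, read 371 in WT, 321 in Het1, 353 in Het2 and 326 in Hom, a range of 1.16-fold. The other, 1448669_at, read 531, 441, 855 and 467, so Het2 was 1.61-fold above WT while Het1 was 1.20-fold below it. They agreed on Hom, at -0.19 log2 units from WT with either, and on Het1, at -0.21 and -0.27. They did not agree on Het2, at -0.07 and 0.69.

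**Figure D3:**
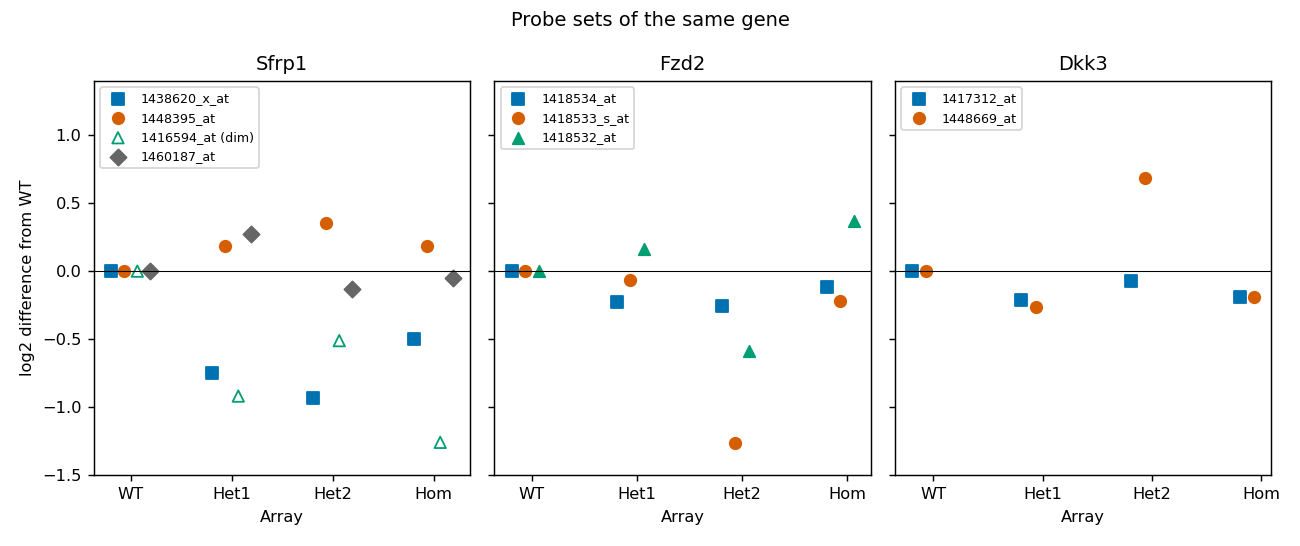
Log2 difference from WT (vertical axis) on each array for every probe set of Sfrp1, Fzd2 and Dkk3; open symbols mark a dim probe set, and WT is 0 by construction. In Het2 the Sfrp1 probe sets range from -0.94 to 0.36, those of Fzd2 from -1.26 to -0.26 and those of Dkk3 from -0.07 to 0.69.

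Of the nuclear factor and the feedback target, only Axin2 was measured above the floor on every array. Its kept probe set read 261 in WT, 288 in Het1, 235 in Het2 and 270.4 in Hom. The 4 arrays lay within 1.22-fold of each other. The highest and lowest were both Het arrays, so WT and Hom lay inside the spread of the Het pair. Het minus WT was -0.0044 log2 units (SE 0.49) and Hom minus WT 0.05 (SE 0.57). The second Axin2 probe set was at the floor on 3 arrays and read 20.8 in Het1. Lef1 read 18.8, 10.8, 6.97 and 12.2, below the floor on all 4 arrays, so the array gives no order for it.

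**Figure D4:**
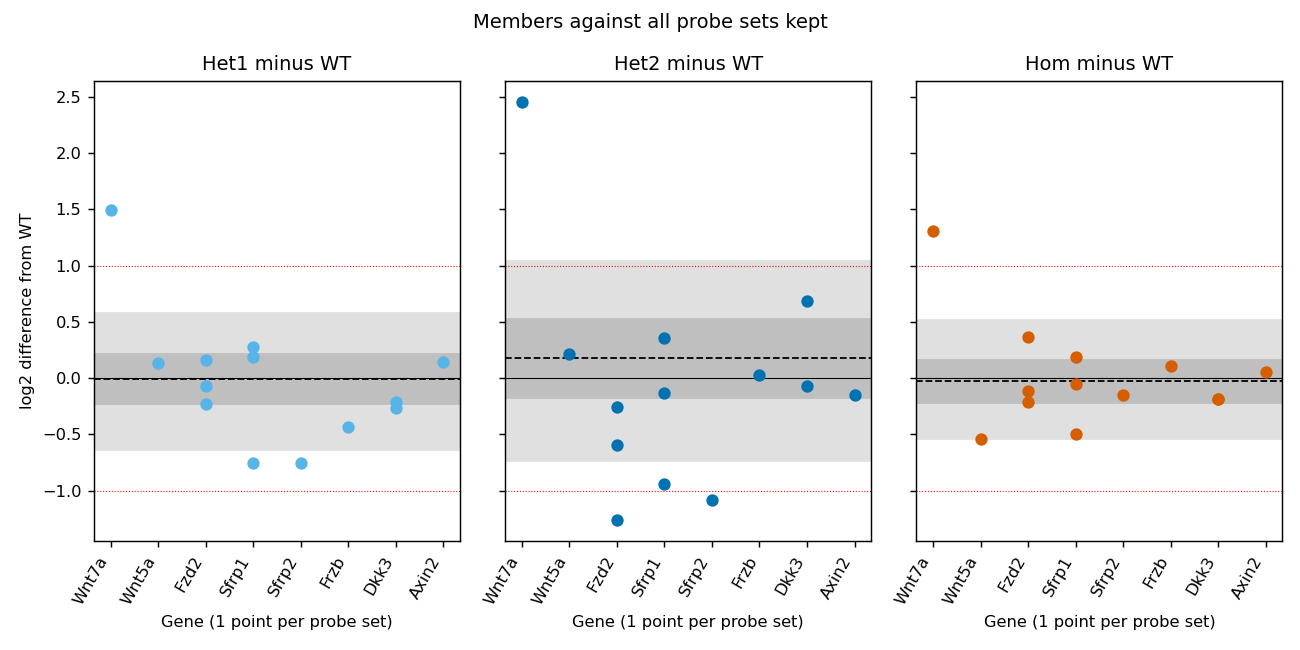
Log2 difference from WT (vertical axis) of the 13 kept member probe sets, 1 point each, in Het1, Het2 and Hom; grey bands hold the middle 50% and 90% of all 11313 kept probe sets, the dashed line is their median and dotted lines mark 2-fold. Wnt7a lies above the upper dotted line on all 3 panels, and 2 member probe sets, of Fzd2 and Sfrp2, lie below the lower one in Het2 only.

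Read together, Wnt7a was the only one of the 13 kept member probe sets that was at least 2-fold from WT in both Het arrays or in Hom. It was also the only one 2-fold higher in Het1 or in Het2 taken alone, where 0.796% and 5.68% of all kept probe sets were. No kept member was 2-fold below WT in both Het arrays, in Hom, in Het1 alone or on all 3 mutant arrays, where 0.186%, 0.636%, 1.26% and 0.053% of all kept probe sets were. None was 2-fold above or below both Het arrays in Hom, against 0.115% and 0.336%. In Het2 alone, 2 of 13 were 2-fold lower than WT, where 2.25% of all kept probe sets were; with the scaling as deposited they were 3 of 13. Between the Het arrays, 1 of 13, of Fzd2, was 2-fold lower in Het2 than in Het1 and none higher, against 3.08% and 8.21%; with the scaling as deposited 2 of 13 were lower. That scaling also changed the background, from 929 higher and 349 lower to 439 higher and 691 lower in Het2 against Het1, from 643 higher and 255 lower to 289 higher and 538 lower in Het2, from 40 and 21 to 33 and 33 in both Het arrays, and from 13 and 38 to 26 and 27 for Hom against both Het arrays. Of the 13, 5 read below WT on all 3 mutant arrays, where 16.3% of all did, and 2 above it on all 3, where 22.7% did. The 5 were 2 probe sets of Fzd2 and 1 each of Sfrp1, Sfrp2 and Dkk3. Het2 was the lowest array for 7 of the 13, against 23.0% of all kept probe sets, and for 8 of 13 against 40.7% with the scaling as deposited.

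The median difference from WT over the 13 was -0.07 in Het1, -0.13 in Het2 and -0.12 in Hom. Over all kept probe sets the medians were -0.004, 0.18 and -0.03. The Het2 median of the 13 depended on the scaling, at -0.32 after quantile normalization and -0.37 with the scaling as deposited, where all kept probe sets had -0.01 and -0.07. Over all 19 member probe sets, the dim ones included, the medians were -0.07, -0.02 and 0. The members were picked, so these values describe them.

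In limma's fit of the 3 groups, 0.0% of kept probe sets passed an adjusted p of 0.05 in any comparison, in either direction. The lowest adjusted p over all kept probe sets was 0.163 when Het was set against WT, 0.325 when Hom was set against Het and 0.9999 when Hom was set against WT. An unadjusted p under 0.05 was reached by 120, 95 and 56 probe sets in the same order. Among the 12 kept member probe sets other than Wnt7a, the lowest unadjusted p was 0.0827, for Sfrp2 in Het against WT. The fit had 1 residual degree of freedom, so a difference that does not pass is not shown to be absent.

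Beyond the members, 110 further genes of the pathway were listed by role, and 98 of them were on the array. They had 160 probe sets, of which 77 were kept for 54 genes. None of the 77 passed limma's adjusted threshold in any comparison. In both Het arrays 1 (1.30%) was at least 2-fold higher than WT and 1 (1.30%) at least 2-fold lower, against 0.354% and 0.186% of all kept probe sets. In Hom none was 2-fold higher or lower, against 0.583% and 0.636%. In Het2 alone 5 (6.49%) were 2-fold higher and 8 (10.4%) were 2-fold lower, against 5.68% and 2.25%, and 3 of the 8 were probe sets of Igfbp4. For Het1, Het2 and Hom the median over the 77 was -0.01, -0.02 and -0.07.

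The probe set higher in both Het arrays was that of Cby1, Chibby, which binds beta-catenin and limits its activity, at 31.7 in WT, 106 in Het1, 92.2 in Het2 and 61.4 in Hom. Hom lay between WT and the Het arrays, 0.95 log2 units above WT. Cby1 was kept only through its Het arrays, since its WT and Hom values lie below the filter mean of 62.6. The lower one was that of Tle5, a short member of the Groucho family of co-repressors, at 211 in WT, 87.2 and 89.1 in the Het arrays and 161 in Hom. Its Het arrays lay close together, below WT and Hom, and the share of all kept probe sets with this order was not counted.

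Of the other ligands, 6 of 17 genes were kept, with medians of -0.02, -0.06 and -0.05 in Het1, Het2 and Hom. Wnt6 was highest in Hom, at 70.8 in WT, 71.1 and 62.5 in the Het arrays and 87.9 in Hom. Wnt4 was flat, at 286, 300.5, 299 and 308. Wnt2 was highest in WT, at 188 against 132, 165 and 166. Wnt16 was at 81.0, 90.1 and 77.4 in WT, Het1 and Hom, and below the floor in Het2 at 13.1. None of the kept probe sets of these 4 ligands was 2-fold above WT on a mutant array. Of all kept probe sets, 0.796%, 5.68% and 0.583% were so in Het1, Het2 and Hom.

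Of the other receptors and co-receptors, 9 probe sets for 8 genes were kept, and none of these 9 was 2-fold from WT on any mutant array. Over all kept probe sets, 0.796% were 2-fold higher and 1.26% lower in Het1, 5.68% and 2.25% in Het2, and 0.583% and 0.636% in Hom. With shares this small, a count of none among 9 does not set the receptors apart. Fzd6, a Frizzled receptor of planar cell polarity, came nearest to 2-fold, at 459 in WT, 642 in Het1, 889 in Het2 and 668 in Hom, with WT lowest as for Wnt7a. Its second probe set was dim and not kept, at 30.1, 61.1, 34.6 and 33.3, with Het1 1.02 log2 units above WT. Lgr6, a receptor for R-spondins, read 74.7, 75.7, 46.9 and 104. Ryk gave 214, 146, 225 and 135 with 1 probe set and 210.4, 284, 245 and 187 with the other, so only Hom was below WT with both.

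The other secreted inhibitors had 12 kept probe sets for 6 genes and medians of -0.21, -0.35 and -0.14. Of the 12, 6 read below WT on all 3 mutant arrays and 2 above it, where 16.3% and 22.7% of all kept probe sets did. Igfbp4 gave more of the 12 than any other gene, and all its kept probe sets were among those below WT. The medians and the count of 6 therefore lean on 1 gene. Wif1, which binds Wnt proteins directly, read 261 in WT, 100.03 in Het1, 148 in Het2 and 156 in Hom. WT was highest, and Het1 was 1.38 log2 units below it, Het2 0.82 and Hom 0.74. Sfrp4 went the other way, at 206, 294, 293 and 242, with WT lowest. Apcdd1, both an inhibitor and a target, gave Hom minus WT differences of -0.11, 0.33 and -0.86 with its 3 kept probe sets.

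Of the carrier and agonist genes, only Wls and Ndp were kept. Wls, which carries Wnt proteins to the cell surface, read 149, 140, 308 and 158 with 1 probe set and 149, 146, 135 and 138 with the second, while the third gave 0.72 for Het2 minus WT, so they disagreed on Het2. Intracellular components had 37 kept probe sets for 25 genes and medians of 0.05, -0.16 and 0.02. Csnk1e, a casein kinase, had the lowest Hom minus WT difference among them with 1 probe set, -0.80, and 0.02 with the other. Tle2, a co-repressor, followed at -0.64.

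The other target genes had 13 kept probe sets for 9 genes, with medians of -0.15, 0.35 and 0.02. Cd44, a hyaluronan receptor that also marks leukocytes, was highest above WT, at 255 in WT, 501 in Het1, 878 in Het2 and 414 in Hom. Its dim second probe set was also lowest in WT. The macrophage sum was 1.91 times WT in Het2 but 0.844 times in Het1 and 0.946 times in Hom, where Cd44 was also above WT; its part was not tested. Ccnd1, cyclin D1, read 330, 436, 422 and 417 with its brightest probe set, which is 0.34 above WT in Hom, while its 2 others gave 0.02 and -0.13. Bambi, a decoy receptor of TGF-beta signalling, read 249, 247, 429 and 170.2.

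**Figure D5:**
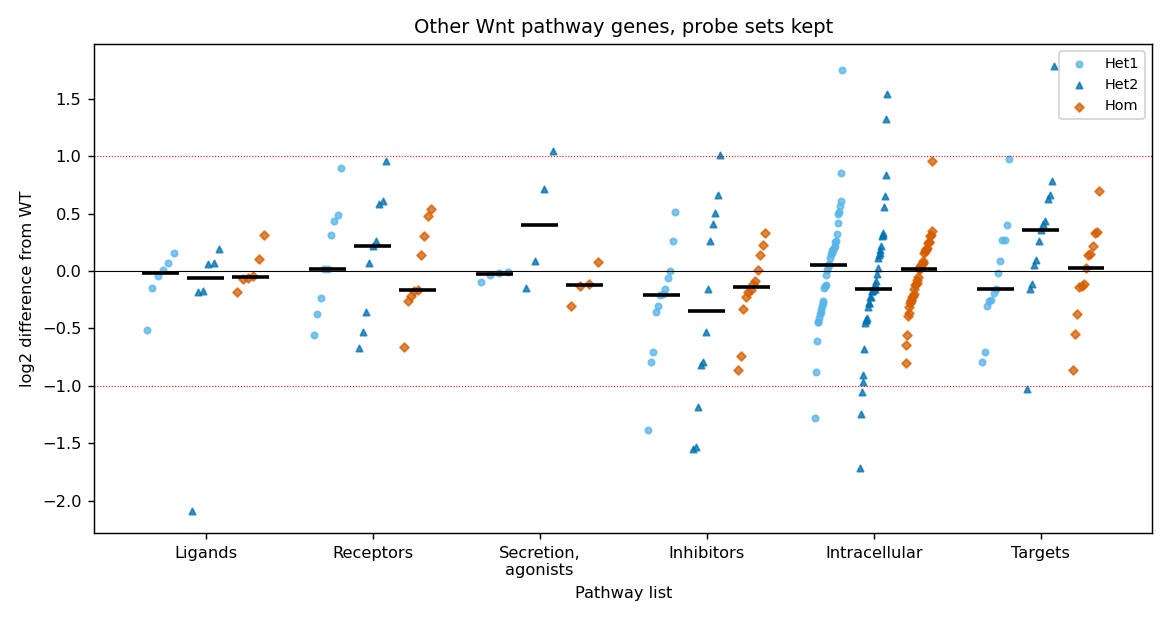
Log2 difference from WT (vertical axis) of the kept probe sets of other Wnt pathway genes by list, for Het1, Het2 and Hom; bars are medians, dotted lines mark 2-fold, and some genes stand in more than 1 list. In Hom every point lies within the dotted lines, while Het2 has the widest spread.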

How the data were processed

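Each deposited table gave a linear intensity for every probe set, and the software and scaling the authors used to make them are not given in the sources used here. Gene names came from the array annotation, and current symbols from RefSeq (GRCm38.p6) by gene number: 20380 of 22626 had 1 gene and 691 several, and 64 control probe sets were left out. Arrays were centred on the common log2 median, floored at the 25th percentile (19), log2 transformed and filtered at a mean of 62.6. All 3 comparisons came from 1 fit of 3 groups with limma 3.58.1 in R 4.3.3 (lmFit, eBayes, Benjamini-Hochberg adjustment over 11313 probe sets, threshold 0.05). The fit was also run on simulated data whose noise came from the Het pair for all 4 arrays. That run does not show how the fit behaves for WT and Hom, which have no replicate. Size calls used 2-fold. The members and gene lists were chosen with earlier results of these data known. Every member probe set was named. Of the other pathway genes, those 2-fold from WT in both Het arrays or in Hom, 2-fold from both Het arrays in Hom, or past the limma threshold could be named, and otherwise at most 2 genes of each list at either end of Hom minus WT. Further probe sets of a named gene, and Igfbp4, were chosen after their values were seen. Alternatives were quantile normalization, the scaling as deposited, other filters, no floor, 1 probe set per gene, trended robust eBayes, a 1.5-fold limit, and each Het array left out. Figures were drawn with matplotlib 3.10.9.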

Additional observations from a re-analysis of the deposited data

How the results depend on the processing

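With no filter, and with 1 at the 75th percentile, the members 2-fold apart numbered 1 and 0 for Het against WT and 2 and 0 for Hom against WT, against 1 each; the stricter filter leaves out Wnt7a, and the second member without a filter is a dim Sfrp1 probe set. At 1.5-fold they were 3 for Het against WT (Wnt7a, Sfrp1 1438620_x_at and Sfrp2) and 2 for Hom against Het (Sfrp2 higher, Wnt5a lower). Leaving out either Het array gave 1 to 3 members for Het against WT and 0 to 2 for Hom against Het; the higher values come without Het1. Over all probe sets 61 differed between Het and WT, 138 between Hom and WT and 51 between Hom and Het. They became 252, 715 and 236 without a filter, 10, 31 and 7 at the 75th percentile, 37, 77 and 26 with 1 probe set per gene, and 374, 859 and 345 at 1.5-fold. Leaving out either Het array gave 223 to 901 for Het against WT and 189 to 987 for Hom against Het, as only 1 Het array then has to be apart. In limma, 1 probe set passed for Het against WT with the filter at the 75th percentile and 0 in the other settings; 0 passed in the other comparisons. With a Het array left out no residual degree of freedom remains, so limma was not run. No paired analysis was possible because WT and Hom have 1 array each. No member difference from WT of at least 2-fold changed sign under these alternatives; of 57 member differences, 4 changed sign with the scaling as deposited, 3 after quantile normalization, 5 without Het1 and 7 without Het2. Signal near the floor limits Lef1, Fzd1 and the second probe sets of Wnt5a, Frzb and Axin2.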

Other observations

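Igfbp4, a binding protein of insulin-like growth factors that can also antagonise Wnt signalling, was chosen after its values were seen. Its 5 kept probe sets all read below WT on all 3 mutant arrays, and Het2 was the lowest array for each of them. Of all kept probe sets, 16.3% read below WT on all 3. Het2 was lowest for 23.0% of them, or 40.7% with the scaling as deposited. The smallest of the Igfbp4 differences was -0.004, for 1437406_x_at in Het1. The suffixes of 1423756_s_at, 1423757_x_at and 1437406_x_at mark probes that may bind other transcripts. The brightest, 1437405_a_at, read 3921 in WT, 3414 in Het1, 2712 in Het2 and 3109.7 in Hom, and 1423756_s_at read 3602, 2807, 1585 and 3170.1. Hom minus WT ran from -0.33 to -0.08 over the 5, and Het2 minus WT from -1.55 to -0.53.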
